A study of Mus musculus with 9 samples.

Results

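The 9 senescence-associated secreted factors described here were the chemokines Ccl2, Ccl7, Cxcl1, Cxcl5 and Cxcl12, the interleukin-6 family cytokines Il6 and Lif, the protease urokinase (Plau) and its receptor (Plaur). They were chosen by name from knowledge of the secretory programme, with earlier results of these data known. Every row of the gene table with one of these names was taken. Of the 9 genes, 7 had a row among the 12550 genes, and all 7 passed the filter on low values. Cxcl1 and Il6 were not analysed here.

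Cells that enter senescence, a lasting arrest of division, release a mixture of cytokines, chemokines, proteases and growth factors known as the senescence-associated secretory phenotype. Chemokines in the mixture draw in leukocytes, urokinase bound to its receptor turns plasminogen into the matrix-cleaving protease plasmin, and interleukin-6 and LIF act through the shared receptor subunit gp130. Fibroblasts are a well-known source of these factors. Reprogramming factors can themselves drive fibroblasts into senescence, and secreted interleukin-6 is known to promote the conversion of neighbouring cells.

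The cells were mouse embryonic fibroblasts (MEFs) of strain C57Bl/6cJ on the way to induced pluripotent stem cells. All groups received plasmids for Oct4, Sox2, Klf4 and c-Myc, grew in mouse embryonic stem cell medium that contained serum and the cytokine LIF, and carried a short hairpin RNA from a pretroSuper construct. The hairpin targeted luciferase in the control arm, Hnrnpk, which encodes the RNA-binding protein hnRNP-K, in the second arm, and lincRNA-p21 (Trp53cor1 in the table), a long noncoding RNA known to bind hnRNP-K, in the third. RNA was taken at days 6, 9 and 12, giving 9 libraries, 1 for each arm and day, each labelled as merged replicates. How many replicates were merged is not stated, and the cultures were mixed populations, since only some cells become pluripotent.

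Values were a normalised signal per gene, whose read depth is unknown. Column totals differed by 0.0252% between libraries. The Hnrnpk signal was 31243, 26944 and 23376 at days 6, 9 and 12 under the control hairpin and 11349, 17016 and 12793 under the Hnrnpk hairpin, while Trp53cor1 was at 286.5, 237 and 250 under the control hairpin and at 90.5, 122 and 97 under the lincRNA-p21 hairpin. Both targets were lower in their own arm on every day, Hnrnpk with an adjusted p of 0.00824 and Trp53cor1 2.38-fold with an adjusted p of 0.0603 (limma). Trp53cor1 was also lower under the Hnrnpk hairpin, at 131, 137 and 119.5, or 1.92-fold (limma, adjusted p = 0.00752). Between the 2 knockdown arms its difference had an adjusted p of 0.318 (limma). All 12 fibroblast markers examined had signal in every arm. Of 12 leukocyte markers only Laptm5, Itgam and Cd68 had rows, and the other 9, with the defining Ptprc, Adgre1 and Csf1r among them, were not analysed here.

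Differences between arms were taken as log2(signal + 10) and averaged over the 3 days with limma, so they understate the change of low genes. A gene was called where the Benjamini-Hochberg adjusted p over all 12541 tested genes was under 0.05. With 1 library per arm and day, the error is how far an arm's difference varied between days, and the spread between replicate cultures was not measured. In these bulk samples, fewer cells of a type and less RNA per cell cannot be told apart.

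The secreted factors were higher under the Hnrnpk hairpin than under the control hairpin for the urokinase system and for Ccl2. Of the 7 genes, 3 rose (Plau, Ccl2 and Plaur), 0 fell and 4 were not called. Over all tested genes 5.58% rose, 6.94% fell and 12.5% were called in either direction. The fitted differences of all 7 genes were above 0, with a median of 0.41 on the log2 scale, where the median of all tested genes was 0.00. Under the lincRNA-p21 hairpin all 7 differences were also above 0, with a median of 0.32 against 0.02 for all genes, but 0 of the 7 were called by limma and 1, Plau, had an unadjusted p under 0.05. That comparison called 0.00797% of all tested genes, which is 1 gene, and 1730 genes had an unadjusted p under 0.05. Both comparisons use the same 3 control libraries.

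**Figure D1:**
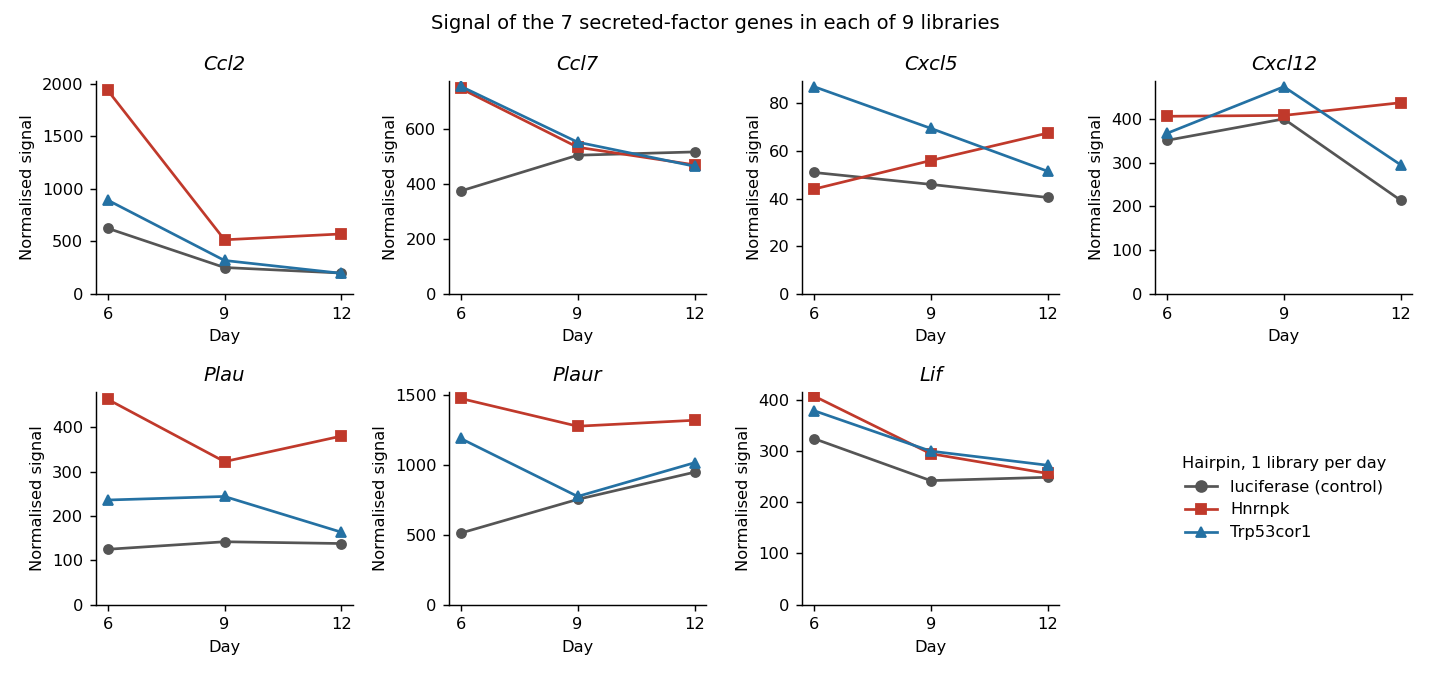
Signal of the 7 secreted factors (linear vertical axes that start at 0) against the day of reprogramming, with 1 point for each merged library, joined within each hairpin arm (Trp53cor1 marks the lincRNA-p21 hairpin). Plau, Plaur and Ccl2 lie highest under the Hnrnpk hairpin on all 3 days, Plau at 463, 322.5 and 380 against 125, 142 and 138 under the control hairpin, while the Ccl7 and Lif lines lie close together at day 12.

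Plau encodes urokinase, the secreted serine protease that activates plasminogen (ENSMUSG00000021822, GRCm38 chr14:20836660-20843385). Its signal was 125, 142 and 138 at days 6, 9 and 12 under the control hairpin, 463, 322.5 and 380 under the Hnrnpk hairpin, and 236, 244 and 163.5 under the lincRNA-p21 hairpin. Every library of either knockdown arm was above every control library, and every Hnrnpk library was above every lincRNA-p21 library. The Hnrnpk difference was 1.45 (SE 0.18), a 2.72-fold rise with a 95% interval of 2.05 to 3.61 (limma, Benjamini-Hochberg adjusted p = 0.0038). It was 3.50-fold at day 6, 2.19-fold at day 9 and 2.64-fold at day 12. The call was lost without all of day 9, where the difference was 1.60 (limma, adjusted p = 0.0567).

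The Plau difference under the lincRNA-p21 hairpin was 0.61 (SE 0.18), or 1.53-fold, with an unadjusted p of 0.00814 in limma and an adjusted p of 0.199. The separation of the groups is thus not matched by a call over all genes. The direct comparison of the knockdown arms put the lincRNA-p21 arm lower by 0.83 (limma, adjusted p = 0.045). Of the 12 fits that each left out 1 library or 1 day, that call held in 2, those without control day 6 or control day 12, and the adjusted p was 0.0687 to 0.249 in the other 10.

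Plaur encodes the urokinase receptor, a membrane-anchored protein that is also shed from cells (ENSMUSG00000046223, GRCm38 chr7:24462484-24475968). Its signal was 511.5, 752 and 946 under the control hairpin at days 6, 9 and 12, 1472, 1274 and 1316.5 under the Hnrnpk hairpin, and 1186.5, 773 and 1013.5 under the lincRNA-p21 hairpin. The Hnrnpk libraries were all above the control libraries, while the lincRNA-p21 and control libraries overlapped. The Hnrnpk difference was 0.91 (SE 0.22), a 1.88-fold rise with a 95% interval of 1.33 to 2.65 (limma, adjusted p = 0.0297). Within days it was 2.84-fold at day 6, 1.69-fold at day 9 and 1.39-fold at day 12.

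Of the 3 calls, that of Plaur was lost most often, in 6 of 12 fits. It was lost without control day 9 (adjusted p = 0.0676 in limma), Hnrnpk day 6 (0.0682), Hnrnpk day 9 (0.112), Hnrnpk day 12 (0.0551), day 9 of all arms (0.148) or day 12 of all arms (0.065). It was also lost with only the 6 libraries compared (0.0699). Without control day 6, the lowest library, it stayed and the difference was 0.57. The lincRNA-p21 difference was 0.45 (95% interval -0.05 to 0.94; limma, adjusted p = 0.411), with 2.29-fold at day 6 against 1.03-fold and 1.07-fold at the later days. The 2 knockdown arms differed by 0.47 in favour of the Hnrnpk arm, which was not called (interval of lincRNA-p21 minus Hnrnpk from -0.96 to 0.03). That difference was called without control day 6 (limma, adjusted p = 0.0359) and without day 6 of all arms (-0.54; limma, adjusted p = 0.0453).

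The other genes of the plasminogen system were read beside these. Plat, the tissue-type plasminogen activator, was at 115.5, 112 and 104 under the control hairpin, 267, 178 and 216 under the Hnrnpk hairpin, and 218, 134 and 114 under the lincRNA-p21 hairpin. It rose 1.89-fold under the Hnrnpk hairpin (0.92, SE 0.18; limma, adjusted p = 0.0135), and its Hnrnpk and control libraries did not overlap. Leaving out 1 library or day ended the Plat call in 3 of 12 fits, those without Hnrnpk day 12 (limma, adjusted p = 0.0623), all of day 9 (0.111) or all of day 12 (0.0729). It was also lost with only the 6 libraries compared (0.0522) and with the day term left out (0.216).

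A further 3 genes that act on urokinase were not called under the Hnrnpk hairpin. The inhibitor genes Serpine2 and Serpinb2 differed by 0.32 (limma, adjusted p = 0.138) and 0.29 (limma, adjusted p = 0.259). Lrp1, the endocytic receptor that clears urokinase bound to its inhibitor, differed by 0.16 (limma, adjusted p = 0.578). Of 23 genes listed as receptors, binders or inhibitors of the secreted factors, 14 had tested rows, and 2 rose under the Hnrnpk hairpin, Plat among them, with 0 lower and a median difference of 0.13. Over all tested genes 5.58% rose and 6.94% fell. The count of 2 was 0 without all of day 9, all of day 12 or Hnrnpk day 12, and 1 without control day 12, Hnrnpk day 6 or any 1 lincRNA-p21 library. The count of lower genes was 1 without control day 6 or Hnrnpk day 6 and 2 without all of day 6.

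**Figure D2:**
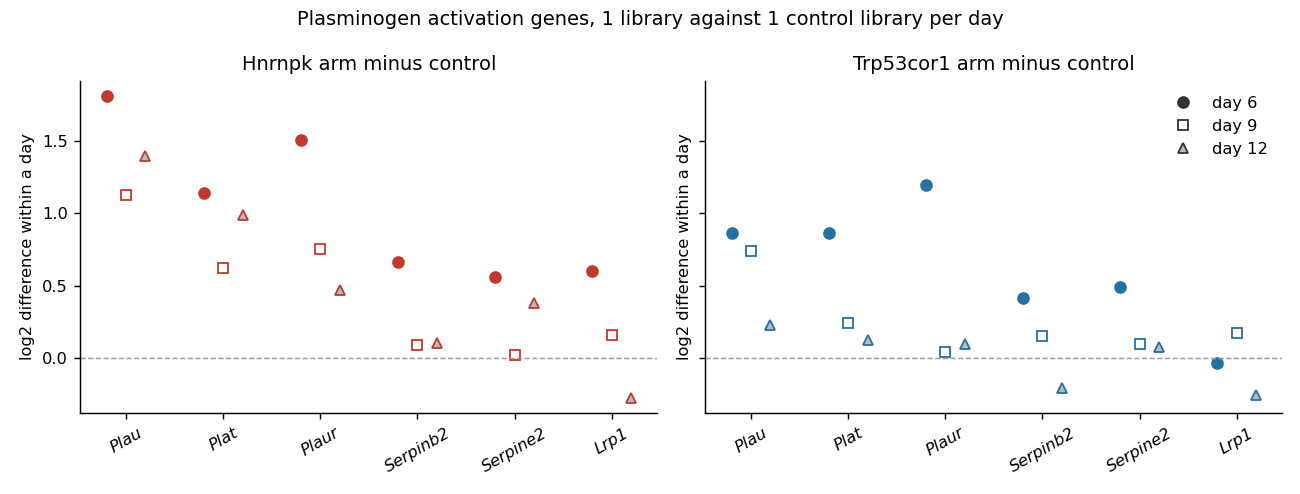
Log2 difference from the control library of the same day (vertical axis) for Plau, Plaur and 4 genes that act with them, for the Hnrnpk arm (left) and the Trp53cor1, or lincRNA-p21, arm (right), with 1 point per day and so no error bar. Day 6 is the highest point for Plau (1.81) and Plaur (1.51) on the left, where each of the genes drawn except Lrp1 lies above 0 on every day.

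Promoter sequences from RefSeq (GRCm38.p6) were examined for 3 of the 7 genes, Plaur, Lif and Cxcl12, and those of Ccl2, Ccl7, Cxcl5 and Plau were not used here. Plaur was called under the Hnrnpk hairpin and Lif and Cxcl12 were not. The called genes Plau and Ccl2 are missing from the 3, so the sequences do not compare called with uncalled genes. The 250 bases before each start site are shown. They were searched on both strands, with overlaps counted, for TGACTCA (the AP-1 site), TTGCNNAA (C/EBP), TATAAA (a core promoter box) and the degenerate NF-kB motif, and matches are in capitals. All 3 genes lie on the plus strand, and the sequences span chr7:24462233-24462482 for Plaur, chr11:4257318-4257567 for Lif and chr6:117168285-117168534 for Cxcl12.
Plaur: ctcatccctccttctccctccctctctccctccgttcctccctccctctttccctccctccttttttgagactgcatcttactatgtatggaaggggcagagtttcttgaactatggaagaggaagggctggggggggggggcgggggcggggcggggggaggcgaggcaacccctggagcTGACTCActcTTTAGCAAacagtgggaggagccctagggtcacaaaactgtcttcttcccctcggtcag
Lif: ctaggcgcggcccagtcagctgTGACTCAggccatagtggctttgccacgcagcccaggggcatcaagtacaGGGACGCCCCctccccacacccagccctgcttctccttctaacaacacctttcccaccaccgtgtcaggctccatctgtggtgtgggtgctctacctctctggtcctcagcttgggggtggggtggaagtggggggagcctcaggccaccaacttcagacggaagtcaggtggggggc
Cxcl12: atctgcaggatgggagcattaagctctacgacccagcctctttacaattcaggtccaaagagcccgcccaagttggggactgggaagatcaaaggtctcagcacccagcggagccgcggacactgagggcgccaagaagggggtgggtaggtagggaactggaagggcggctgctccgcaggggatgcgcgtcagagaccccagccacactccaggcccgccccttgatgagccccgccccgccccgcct

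The Plaur sequence held TGACTCA at 69 to 63 bases before the start and TTTAGCAA, a C/EBP match on the other strand, at 59 to 52. The Lif sequence held TGACTCA at 228 to 222 bases before the start and an NF-kB match, GGGACGCCCC, at 178 to 169. The Cxcl12 sequence held no match to these motifs. Among 32817 mouse promoters of the same length, 4.46% held the AP-1 letters, 7.25% the NF-kB motif, 9.57% the C/EBP letters and 12.4% the TATAAA letters. A match describes letters in the window and shows no binding.

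Ccl2, the monocyte chemoattractant MCP-1 (ENSMUSG00000035385, GRCm38 chr11:82035571-82037453), changed both with the arm and with the day. Its signal was 625.5, 252.5 and 200 at days 6, 9 and 12 under the control hairpin, 1937.5, 516 and 571.5 under the Hnrnpk hairpin, and 893.5, 319.5 and 197.5 under the lincRNA-p21 hairpin. Day 6 was the highest library of each arm, and on each day the Hnrnpk library was the highest of the 3. The Hnrnpk and control ranges overlapped because control day 6 lay above Hnrnpk days 9 and 12. With days matched, Ccl2 was 3.06-fold higher at day 6, 2.00-fold at day 9 and 2.77-fold at day 12.

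The fitted Ccl2 difference under the Hnrnpk hairpin was 1.36 (SE 0.16), a 2.57-fold rise with a 95% interval of 1.99 to 3.32 (limma, adjusted p = 0.00357). It was called in all 12 fits that left out 1 library or 1 day, at 1.24 to 1.56 and adjusted p from 0.00565 to 0.0482. Under the lincRNA-p21 hairpin the difference was 0.27 (95% interval -0.10 to 0.64; limma, adjusted p = 0.496). The lincRNA-p21 arm was lower than the Hnrnpk arm by 1.09 (limma, adjusted p = 0.0152). That last call was lost without Hnrnpk day 9 (adjusted p = 0.0554), Hnrnpk day 12 (0.0614), lincRNA-p21 day 6 (0.0987), day 9 (0.0847) or day 12 (0.0887), and without day 9 (0.209) or day 12 (0.129) of all arms. The annotated gene Gm17268 covers all 1883 bases of Ccl2 on the opposite strand, and whether reads were counted by strand is not stated, so the 2 genes' reads may not be separable.

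Ccl7, or MCP-3, is a related chemokine that draws monocytes and lies 8258 bases beyond Ccl2 (ENSMUSG00000035373, GRCm38 chr11:82045712-82047525). Its signal was 374.5, 504.5 and 516.5 under the control hairpin, 747, 533.5 and 469.5 under the Hnrnpk hairpin, and 755, 552 and 464.5 under the lincRNA-p21 hairpin at days 6, 9 and 12. At day 6 both knockdown libraries were above the control library by nearly the same amount (0.98 and 0.99 on the log2 scale). At day 12 both were slightly below it (-0.13 and -0.15). The mean differences were 0.31 under the Hnrnpk hairpin (limma, adjusted p = 0.375) and 0.32 under the lincRNA-p21 hairpin (limma, adjusted p = 0.535), and without control day 6 they were -0.028 and -0.012. The longest run of bases shared by Ccl2 and Ccl7 transcripts was 23. Of 9 genes listed as neighbours of these genes in the chemokine clusters, 0 had tested rows.

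**Figure D3:**
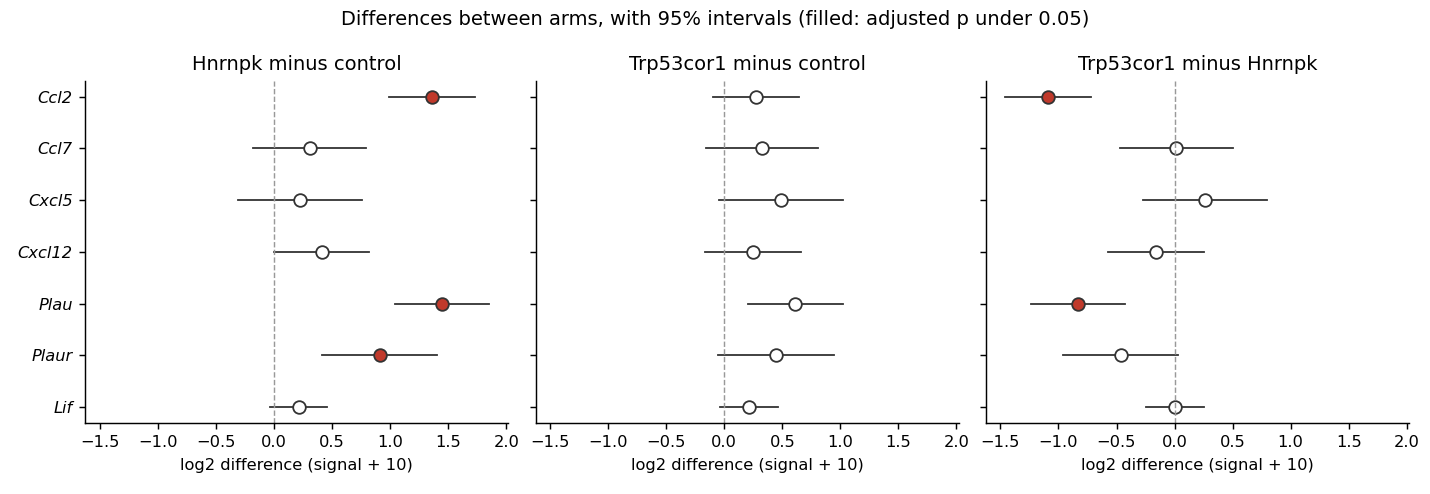
Fitted log2 differences of the 7 genes over the 3 days (points) with 95% intervals from limma (bars), for Hnrnpk minus control, lincRNA-p21 (labelled Trp53cor1) minus control, and lincRNA-p21 minus Hnrnpk, with called genes filled. Plau at 1.45, Ccl2 at 1.36 and Plaur at 0.91 are filled on the left, no gene in the middle, where only the interval of Plau lies above 0 (0.20 to 1.02), and Ccl2 and Plau on the right.

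Cxcl12, or SDF-1, guides stem cells and leukocytes through its receptor Cxcr4 (ENSMUSG00000061353, GRCm38 chr6:117168535-117181367). Its signal was 351, 400 and 214 at days 6, 9 and 12 under the control hairpin, 406, 408 and 437 under the Hnrnpk hairpin, and 367, 473.5 and 295 under the lincRNA-p21 hairpin. The Hnrnpk libraries lay just above all control libraries, and the wide gap was at day 12, where the control and lincRNA-p21 libraries were low. The Hnrnpk difference of 0.41 (SE 0.18) was not called (limma, adjusted p = 0.172), and the day 12 difference was 0.997 on the log2 scale, just under 2-fold. The lincRNA-p21 difference was 0.25 (limma, adjusted p = 0.573). Cxcr4 was at 186, 128.5 and 126 under the control hairpin and 162, 153 and 144 under the Hnrnpk hairpin, a difference of 0.08 that was not called (limma, adjusted p = 0.755).

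Cxcl5, a neutrophil chemoattractant, had a signal low enough for the constant of 10 added before the log2 to shrink its differences (ENSMUSG00000029371, GRCm38 chr5:90759360-90761624). Its signal was 51, 46 and 40.5 under the control hairpin, 44, 56 and 67.5 under the Hnrnpk hairpin, and 87, 69.5 and 51.5 under the lincRNA-p21 hairpin. The lincRNA-p21 libraries were all above the control libraries, by the narrow margin of 51.5 against 51, and the Hnrnpk libraries overlapped them. Cxcl5 had its highest library at day 6 under the lincRNA-p21 hairpin and at day 12 under the Hnrnpk hairpin. The difference was 0.49 under the lincRNA-p21 hairpin (95% interval -0.05 to 1.02; limma, adjusted p = 0.405) and 0.23 under the Hnrnpk hairpin (-0.31 to 0.76; limma, adjusted p = 0.567).

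Lif encodes leukemia inhibitory factor, the cytokine that holds mouse embryonic stem cells in self-renewal and was also added as protein to the medium (ENSMUSG00000034394, GRCm38 chr11:4257557-4272514). Its signal was 324, 242 and 248.5 at days 6, 9 and 12 under the control hairpin, 407, 294.5 and 256 under the Hnrnpk hairpin, and 378.5, 299.5 and 272 under the lincRNA-p21 hairpin. Day 6 was the highest library of every arm, and each knockdown library was above the control library of its day, with overlap between days. The difference was 0.21 in both knockdown arms (95% interval of the Hnrnpk arm -0.04 to 0.46), with limma adjusted p = 0.235 for Hnrnpk and 0.43 for lincRNA-p21. Between the knockdown arms it was 0.00 (interval -0.25 to 0.25).

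The receptors of LIF and interleukin-6 were not called under the Hnrnpk hairpin. Lifr, the LIF-binding subunit, was at 468.5, 709 and 974 under the control hairpin, 677.5, 898 and 1006 under the Hnrnpk hairpin, and 420, 823 and 1058.5 under the lincRNA-p21 hairpin. It rose from day 6 to day 9 over the 3 arms by 0.65 (limma, adjusted p = 0.008), while the Hnrnpk difference was 0.30 (limma, adjusted p = 0.2). Il6st, which encodes the shared subunit gp130, and Il6ra, the interleukin-6 receptor, each differed by 0.09 (limma, adjusted p = 0.626 and 0.757). Osmr, the oncostatin M receptor subunit that pairs with gp130, differed by -0.59 (limma, adjusted p = 0.0535).

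Counts over the 7 genes were compared with those over all genes. Under the Hnrnpk hairpin 3 of 7 (Plau, Plaur and Cxcl12) lay above every control library, as did 6.87% of all tested genes, and under the lincRNA-p21 hairpin 2 of 7 (Plau and Cxcl5), against 4.31%. A difference of at least 2-fold was seen under the Hnrnpk hairpin for 3 genes at day 6 (Ccl2, Plau and Plaur) and for 2 at days 9 and 12 (Ccl2 and Plau). Over all genes those shares were 4.53%, 2.54% and 3.76%. Under the lincRNA-p21 hairpin 1 gene, Plaur, reached it at day 6 and 0 did later, where the shares of all genes were 1.66%, 0.837% and 1.20%.

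Between the knockdown arms, 2 of the 7 genes were lower under the lincRNA-p21 hairpin (Ccl2 and Plau) and 0 higher. Over all genes 1.56% were lower, 1.70% higher and 3.26% were called in either direction. The other 5 genes were not called, and for Lif and Ccl7 the differences were 0.00 and 0.02. The interval for Ccl7 ran from -0.47 to 0.50, so a sizeable difference in either direction was within its error. With the day term left out of the model, 0 of the 7 genes were called in any comparison of arms.

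Over the 3 arms, Ccl2 and Lif fell from day 6 to day 9, and 0 of the 7 rose. At that step 21.0% of all tested genes fell, 18.9% rose and 39.9% were called in either direction, so a share of 2 in 7 is near the background. Ccl2 fell by 1.54 on the log2 scale (SE 0.16; limma, adjusted p = 0.000333), or 2.91-fold. Lif fell by 0.40 (SE 0.11; limma, adjusted p = 0.0199), or 1.32-fold. The Lif call was lost without control day 9 (adjusted p = 0.0944), Hnrnpk day 6 (0.06), Hnrnpk day 9 (0.0737) or lincRNA-p21 day 9 (0.0754). Without control day 6, Ccl7 and Plaur were also called lower at day 9 (-0.50 and -0.43; limma, adjusted p = 0.00784 and 0.0219).

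From day 9 to day 12, 0 of the 7 genes were called by limma, against 0.654% of all tested genes (82 genes, with 0.526% higher and 0.128% lower). At an unadjusted p under 0.05 there was 1, Cxcl12, at -0.48 (unadjusted p = 0.0273, adjusted p = 0.296). Its Hnrnpk library did not share that lower day 12 value.

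**Figure D4:**
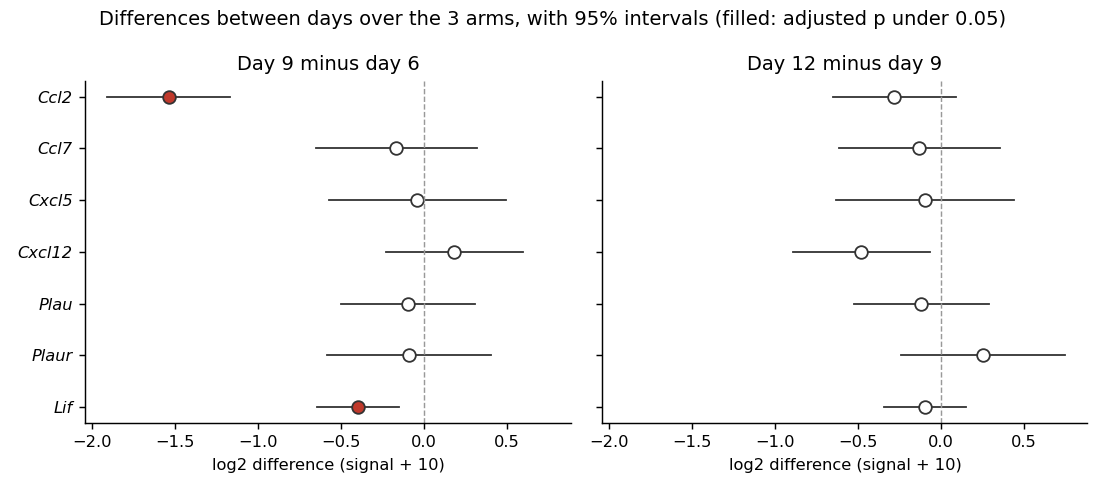
Fitted log2 differences of the 7 genes between days over the 3 arms (points) with 95% intervals from limma (bars), for day 9 minus day 6 and day 12 minus day 9, with called genes filled. Ccl2 (-1.54) and Lif (-0.40) are filled in the left panel, and no gene in the right panel, where Cxcl12 lies at -0.48.

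Whether an arm's difference changed steadily with time was tested as a slope per 3 days. Under the Hnrnpk hairpin Ccl7 was the 1 gene of 7 with a called slope, at -0.56 per 3 days (SE 0.13; limma, adjusted p = 0.0377). The fitted slopes of Plaur (-0.52), Plau (-0.21), Lif (-0.14) and Ccl2 (-0.07) were also below 0 and not called, and those of Cxcl5 and Cxcl12, each 0.40, were above 0. Over all tested genes 4.30% were called with a falling slope, 5.06% with a rising one and 9.35% were called in either direction. The adjusted p of the Plaur slope was 0.0775 (limma). Under the lincRNA-p21 hairpin the slopes of Ccl7 and Plaur were -0.57 (limma, adjusted p = 0.155) and -0.55 (limma, adjusted p = 0.183). That test called 0 genes, or 0% of those tested, with 2107 at an unadjusted p under 0.05, 2 of them among the 7. Both knockdown arms share the control libraries, whose Ccl7 and Plaur signal was lowest at day 6.

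A wider list of secreted or shed factors reported from senescent cells was read beside the 7 genes. Of 52 listed, 40 had tested rows, and under the Hnrnpk hairpin 14 rose, 4 fell and 22 were not called, with a median difference of 0.42. Over all tested genes 5.58% rose and 6.94% fell. Ereg, an EGF receptor ligand, was at 70.5, 69.5 and 81.5 under the control hairpin, 648.5, 327 and 288.5 under the Hnrnpk hairpin, and 118, 92 and 79.5 under the lincRNA-p21 hairpin, without overlap between the Hnrnpk and control arms. It rose 4.84-fold (2.27, SE 0.23; limma, adjusted p = 0.00272). The stress-induced cytokine gene Gdf15 rose by 1.79 (limma, adjusted p = 0.00407), the adhesion molecule gene Icam1 by 1.47 (limma, adjusted p = 0.00272) and the osteopontin gene Spp1 by 1.28 (limma, adjusted p = 0.00892).

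The 4 that fell were named after their values were seen: the Wnt ligand gene Wnt16 (-0.93), the matrix protease gene Mmp2 (-0.87), and the growth factor genes Tgfb2 (-0.73) and Vegfa (-0.72). The count of 14 was 1 without all of day 9, 4 without all of day 12, 7 without control day 9, 8 without Hnrnpk day 12 and 9 without Hnrnpk day 9. The count of 4 was 0 without all of day 9, 1 without all of day 12 and 2 without Hnrnpk day 9. With the lincRNA-p21 hairpin 0 of the 40 were called, with a median of 0.18, where 0.00797% of all tested genes were called. From day 6 to day 9, 17 of the 40 fell and 2 rose (Vegfa and Igfbp2, named after their values were seen), with a median of -0.39 where all genes had -0.01. At that step 21.0% of all tested genes fell and 18.9% rose.

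**Figure D5:**
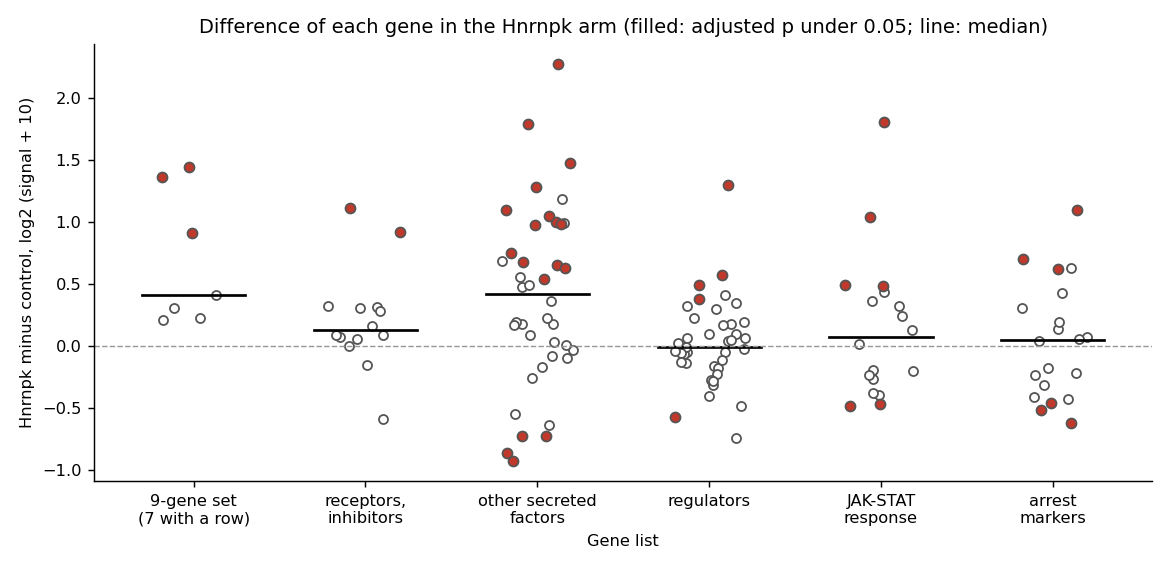
Log2 difference of the Hnrnpk arm from the control arm for the tested genes of each list, with 1 point per gene, called genes in colour and the list median as a bar. The median is 0.41 for the 7 genes and 0.42 for the 40 other secreted factors, and near 0 for regulators, gp130 response genes and arrest markers. The regulator and arrest lists mix genes of opposite action, so their medians have no single meaning.

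Transcription factors and signalling proteins known to drive or restrain the secretory programme were called about as often as all tested genes. The list holds inhibitors, such as Tnfaip3 and Nfkbia, beside drivers, so its median does not describe the drivers alone. Of 44 listed, 39 had tested rows, and under the Hnrnpk hairpin 4 rose and 1 fell, with a median of 0.00. Over all tested genes 5.58% rose, 6.94% fell and 12.5% were called in either direction, so the share called in this list was near the background. Atf3, a stress-induced factor that binds AP-1-like sites, was at 48, 79.5 and 77.5 under the control hairpin and 242, 157.5 and 148.5 under the Hnrnpk hairpin, a 2.45-fold rise without overlap (1.29, SE 0.26; limma, adjusted p = 0.0154). Tnfaip3, an inhibitor of NF-kB signalling, rose by 0.57 (limma, adjusted p = 0.0211), Jun, a component of AP-1, by 0.50 (limma, adjusted p = 0.0425), and the kinase gene Irak4 fell by 0.57 (limma, adjusted p = 0.029). Leaving out 1 library or day ended the call in 3 of 12 fits for Atf3, 6 for Tnfaip3, 8 for Irak4 and 11 for Jun, whose adjusted p reached 0.248 in limma. The other riser, the receptor gene Tlr2, named after its values were seen, differed by 0.38 and was called in 0 of these 12 fits.

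The NF-kB subunit genes were not called, with Rela at -0.04, Nfkb1 at 0.10 and Nfkb2 at 0.35 (limma, adjusted p = 0.826, 0.532 and 0.0568). Cebpb, which encodes the C/EBP factor tied to interleukin-6, was at -0.49 (limma, adjusted p = 0.234). Calls in the regulator list depended on single libraries. Its count of rises was 0 without Hnrnpk day 9, all of day 9 or all of day 12, 1 without control day 9, Hnrnpk day 12 or lincRNA-p21 day 9, and 2 without lincRNA-p21 day 6 or lincRNA-p21 day 12. Its count of falls was 0 without day 9 of any 1 arm, control day 12, Hnrnpk day 12, all of day 9 or all of day 12, 2 without control day 6 and 3 without all of day 6.

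Genes downstream of LIF and interleukin-6 moved in both directions. Of 18 listed and tested, 4 rose and 2 fell under the Hnrnpk hairpin, with a median of 0.07, where 5.58% of all tested genes rose and 6.94% fell. Gbx2, a homeobox gene that responds to LIF in embryonic stem cells, rose by 1.80 (limma, adjusted p = 0.00844) from a low signal of 17.5, 14 and 12 to 60, 104.5 and 67. Klf5 and Pim1, which are LIF-responsive in embryonic stem cells, rose by 0.49 (limma, adjusted p = 0.0257) and 0.48 (limma, adjusted p = 0.027). Stat5b and Stat5a, named after their values were seen, fell by 0.48 and 0.46. Socs3, a feedback inhibitor of gp130, was at -0.26 (limma, adjusted p = 0.126). The 4 rises became 0 without all of day 9, 1 without control day 9 or all of day 12, and 2 without control day 12, Hnrnpk day 9 or lincRNA-p21 day 9. The 2 falls ranged from 0 without Hnrnpk day 9, all of day 9 or all of day 12 to 4 without control day 6 or Hnrnpk day 6 and 7 without all of day 6, and were 1 without control day 9, control day 12, Hnrnpk day 12 or any 1 lincRNA-p21 library.

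Cell cycle and nuclear markers of senescence moved in both directions. The list mixes inhibitors of division, such as Cdkn2b, with genes of dividing cells, such as Mki67, so its median does not measure arrest. Of 20 listed and tested, 3 rose and 3 fell under the Hnrnpk hairpin, with a median of 0.05. Over all tested genes 5.58% rose and 6.94% fell. The cell cycle inhibitor gene Cdkn2b rose by 1.09 (limma, adjusted p = 0.0134), the p53 regulator gene Mdm2 by 0.70 (limma, adjusted p = 0.0201) and the chromatin protein gene Hmga2 by 0.62 (limma, adjusted p = 0.00731), while the inhibitor gene Cdkn1b fell by 0.62 (limma, adjusted p = 0.0286). Glb1, the gene of senescence-associated beta-galactosidase, and the inhibitor gene Cdkn2d, both named after their values were seen, fell by 0.51 and 0.46. The p21 gene Cdkn1a, at 0.06, and Cdkn2a, at -0.22, were not called (limma, adjusted p = 0.794 and 0.322).

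The 3 rises among arrest markers became 8 without control day 6 or all of day 6, 5 without Hnrnpk day 6, 2 without Hnrnpk day 9 or all of day 12, 1 without control day 9 and 0 without all of day 9. The 3 falls became 0 without day 9 of any 1 arm, Hnrnpk day 6, all of day 9 or all of day 12, 1 without lincRNA-p21 day 6 or lincRNA-p21 day 12, and 2 without control day 12 or Hnrnpk day 12. Under the lincRNA-p21 hairpin 0 genes of the receptor, regulator, gp130 and arrest lists were called. With only the 6 libraries compared, the counts higher and lower under the Hnrnpk hairpin were 5 and 3 for the other secreted factors, 2 and 0 for the gp130 list, and 0 and 0 for the receptor, regulator and arrest lists. With the day term left out, 0 genes of these 5 lists were called in either direction.

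Summed markers of other cell states also differed between the arms. For the counts that follow, 5.58% of all tested genes rose and 6.94% fell under the Hnrnpk hairpin. Of 10 pluripotency markers, 6 rose and 0 fell under the Hnrnpk hairpin, and their summed signal was 745 to 11454.5 there, 533.5 to 1731 with the control hairpin and 551 to 7485 with the lincRNA-p21 hairpin. With the lincRNA-p21 hairpin 0 of the 10 were called, though all 10 differences were above 0, with a median of 1.26. Of 11 epithelial markers, 6 rose and 1 fell under the Hnrnpk hairpin, with sums of 5771 to 46418, against 5075.5 to 25567.5 for control and 3089.5 to 23517 for lincRNA-p21. The summed fibroblast markers were 187598 to 345124 under the Hnrnpk hairpin, 263438 to 309498 under the control hairpin and 243884 to 371156 under the lincRNA-p21 hairpin. Most of each sum came from Vim and Col1a2, which reach the highest value that all libraries share (118715). The other 10 markers, a sum added after seeing the data, came to 62909 to 107694, 64089.5 to 82370 and 62816 to 133726 in the same order, with overlap of all 3 arms. Of the 12, S100a4 rose and the others were not called, and none of these lists had a marker at 0 in all libraries.

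The 3 leukocyte markers with rows summed to 3556.5 to 5173 under the Hnrnpk hairpin, 3276 to 3829.5 under the control hairpin and 3250 to 3693.5 under the lincRNA-p21 hairpin, with 0 called. Cd68, a lysosomal protein gene that is not confined to macrophages, was at 780, 314.5 and 556 under the Hnrnpk hairpin and 120.5, 238.5 and 380 under the control hairpin (difference 1.17; limma, adjusted p = 0.0778). The 2 endothelial markers with rows, of 7 listed, summed to 2271.5 to 2659 under the Hnrnpk hairpin and 2345 to 3234 under the control hairpin. The part of these cell states in the secreted factor differences was not tested.

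The pattern of each gene over the 9 libraries was compared with that of every other tested gene by Pearson's r of the log2 values, as a description, since the libraries share arms and days. The closest patterns were Actn1 (0.987) and Cobll1 (0.985) for Ccl2, Nagpa (0.993) and Syne1 (0.988) for Lif, and Sgpl1 (0.973) and Btbd10 (0.972) for Plaur. For Plau they were Fbxo34 (0.958) and Abcd4 (0.957), for Ccl7 Surf4 (0.965) and Cmpk1 (0.957), for Cxcl12 Jtb (0.930) and Plac9b (0.923), and for Cxcl5 Tspan6 (0.927) and Cstf3 (0.916). Cobll1, for example, was at 530, 147.5 and 131 under the control hairpin and 1512.5, 322 and 299 under the Hnrnpk hairpin, high at day 6 and higher under the Hnrnpk hairpin as Ccl2 was.

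Among the 7 genes, Ccl2 and Lif were the most alike pair (r = 0.858) and Plau and Plaur came next (0.808). The neighbours Ccl2 and Ccl7 had r = 0.554 over the 9 libraries. Ccl2 and Plau had r = 0.684. The lowest value was that of Cxcl12 and Plaur (0.121).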

How the data were processed

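RNA from 9 merged libraries was measured by RNA-seq. The deposited unit is a normalised signal per gene and library. Per the submitters' processing notes, the tools were RSEM 1.2.12 and Bowtie 1.0.1 and the build was mm10, with no role stated. No source used here gives the scaling. The deposited signal lies on steps of 0.5, 62.8% of values are whole, and all libraries share a highest value of 118715. No gene's highest value is under 32.5. Counts and depth are unknown, and count tests were not used.

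Values were used as deposited, as log2(signal + 10), for the 12541 genes with a mean of at least 20. R 4.3.3 with limma 3.58.1 fitted arm and day (4 residual degrees of freedom, 4.46 prior), with an intensity trend and Benjamini-Hochberg adjustment at 0.05. Slopes used a model with 2 residual degrees of freedom, so they rest mostly on the pooled spread. The script was tested on simulated data. Coordinates came from GENCODE M21 (GRCm38).

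The genes and lists were chosen with earlier results of these data known. Named context genes are receptors and inhibitors of the 7 genes and, per list, up to 4 called genes with the largest Hnrnpk difference. Alternatives were other pseudocounts (1 and 50), filters, scaling, trend and terms, and leaving out each library or day, which for the lists and context genes was added after seeing the data. Some genes of the lists are counted but not reported by name here.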

Additional observations from a re-analysis of the deposited data

Results flagged for a closer look

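The Ccl7 difference between the Hnrnpk and control arms had a fitted slope of -0.56 per 3 days (SE 0.13; limma, Benjamini-Hochberg adjusted p = 0.0377). The slope was called on 1 library per arm and day, and the call was lost without the intensity trend (limma, adjusted p = 0.0629). Under the lincRNA-p21 hairpin the slope was -0.57 and not called. Both arms share the control libraries, whose Ccl7 signal was lowest at day 6 (374.5), and the slope was not refitted without that library.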

How the results depend on the processing

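Under the Hnrnpk hairpin 1570 genes and 3 of the 7 were called. Leaving out 1 library or day gave 25 to 3001 genes and 1 to 3 of the 7. The lincRNA-p21 arm against control gave 0 to 175 genes, lincRNA-p21 against Hnrnpk 0 to 959 genes and 0 to 3 of the 7, day 9 against day 6 3062 to 5605 genes and 1 to 4 of the 7, and day 12 against day 9 1 to 421 genes.

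With no replicate block (the day term left out), 1 gene and 0 of the 7 were called for Hnrnpk against control, 1 gene and 0 of the 7 for lincRNA-p21 against Hnrnpk, and 0 genes for lincRNA-p21 against control. Plau then had an adjusted p of 0.0663, Ccl2 0.519 and Plaur 0.185 against control in limma. No paired analysis of replicates was possible because each arm and day has 1 merged library. With only the 6 libraries compared, 330, 646 and 0 genes were called in those 3 comparisons, in the order Hnrnpk against control, lincRNA-p21 against Hnrnpk and lincRNA-p21 against control. Without the trend, lincRNA-p21 against control gave 13 genes (1 in the main fit), and the Hnrnpk slope 596 genes (1173) and 0 of the 7. A pseudocount of 50 gave 0 genes for lincRNA-p21 against control, and a pseudocount of 1 gave 50 for day 12 against day 9.

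Directions reversed, always for uncalled differences, as follows. Median centring moved Lif between the knockdown arms from 0.0019 to -0.0062. Leaving out 1 library or day gave, for Hnrnpk against control, ranges of -0.028 to 0.54 (Ccl7), -0.020 to 0.47 (Cxcl5), -0.077 to 0.13 (Cdkn1a), -0.0046 to 0.21 (Cxcr4), -0.17 to 0.30 (Il6ra), -0.0067 to 0.15 (Il6st) and -0.056 to 0.38 (Lrp1). For lincRNA-p21 against control Ccl7 ranged from -0.012 to 0.56. Between the knockdown arms the ranges were -0.15 to 0.18 (Ccl7), -0.35 to 0.083 (Cxcl12), -0.033 to 0.56 (Cxcl5) and -0.061 to 0.055 (Lif). From day 6 to day 9 they were -0.50 to 0.00020 (Ccl7), -0.29 to 0.15 (Cxcl5), -0.25 to 0.093 (Plau) and -0.43 to 0.14 (Plaur), and from day 9 to day 12 -0.34 to 0.10 (Cxcl5) and -0.31 to 0.060 (Plau). The causes were not tested.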
